A study of Mus musculus with 8 samples.

Results

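Interferon-responsive monocytes are blood-derived cells of the mouse brain after stroke that carry the Ccr2, Plac8, Vcan and Ly6c2 transcripts of inflammatory monocytes together with the antiviral transcripts Ifit2, Ifit3 and Rsad2. A cell was counted as a member when Ifit2, Ifit3 and Rsad2 together reached at least 5 unique molecular identifiers (UMIs, which count captured RNA molecules) per 10000 UMIs of the cell. It also needed at least 2 raw UMIs of Ccr2, Plac8, Vcan and Ly6c2 together, and low levels of transcripts of microglia, of antigen-presenting and lipid-laden macrophages and of neutrophils, with no Cd3e or Cd79a. The rule found 161 members among 39945 deposited cells, 39608 of which had at most 10% mitochondrial UMIs. The 4250 cells that met every other condition with less than 5 per 10000 of the 3 interferon genes are called other monocytes. The members were thus selected on their measured levels of these genes, so every level of the members beside the other monocytes is given as a description, without a test.

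The brains came from male C57BL/6J mice of 8 to 9 weeks, either Prdx1-/- or wild type (WT, Prdx1+/+), which all had 60 min of middle cerebral artery occlusion by an intraluminal suture. Prdx1 encodes peroxiredoxin 1, an enzyme that removes hydrogen peroxide. After reperfusion for 48 h or 24 h, the hemisphere on the side of the occlusion (ipsilateral) and the opposite one (contralateral) were each dissociated, and live cells were sorted by a viability dye without a lineage marker. The 8 libraries cover each combination of genotype, hemisphere and time with 1 library, from 39433266 to 70111421 UMIs. The number of animals behind a library is not given in the labels, so the p-values speak of variation from library to library alone, part of which may be technical. The labels also do not say whether the ipsilateral and contralateral libraries of a genotype and time came from the same animals. The tests below count them as separate libraries, so differences between animals and between genotypes cannot be told apart.

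Type I interferons are cytokines released when a cell senses foreign or misplaced nucleic acid, and they act on neighbouring cells through the receptor made of IFNAR1 and IFNAR2. The receptor activates transcription factors, STAT2 with IRF9 among them, which bind interferon-stimulated response elements in the promoters of antiviral genes, IRF7 among them, which amplifies the response. Monocytes enter the ischaemic brain in a CCR2-dependent manner, and the Ly6C-high blood monocytes are among the cells that respond strongly to type I interferon.

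The promoters of Ifit3 and Rsad2, which helped choose the members, and of Ifit1, Cxcl10 and Isg15, which stood among the highest genes in them, are shown because they hold the letters of the interferon-stimulated response element core, which are GAAA, any 2 bases and GAAA again. Ifit2, the other interferon gene of the rule, has no such match in its window and is not shown. The windows are the 250 bases before the start site in RefSeq's GRCm38.p6 tables, printed 5′ to 3′ in the direction of transcription, and each match to these letters on either strand is in capitals. Ifit3 lies on the plus strand (chr19:34583279-34583528) with matches that begin at -156 and -122 from the start site, and Rsad2 on the minus strand (chr12:26456453-26456702) with 1 match at -120. Ifit1 is on the plus strand (chr19:34640639-34640888) with matches at -104 and -85. Cxcl10 is on the minus strand (chr5:92348890-92349139) with 1 match at -213, and Isg15 is on the minus strand (chr4:156200819-156201068) with 3 overlapping matches at -78, -72 and -66.
Ifit3: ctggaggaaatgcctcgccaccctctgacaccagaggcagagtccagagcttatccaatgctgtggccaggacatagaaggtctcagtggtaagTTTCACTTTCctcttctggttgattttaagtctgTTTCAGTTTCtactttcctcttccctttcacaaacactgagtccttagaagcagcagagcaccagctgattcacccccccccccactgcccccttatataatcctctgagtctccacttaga
Rsad2: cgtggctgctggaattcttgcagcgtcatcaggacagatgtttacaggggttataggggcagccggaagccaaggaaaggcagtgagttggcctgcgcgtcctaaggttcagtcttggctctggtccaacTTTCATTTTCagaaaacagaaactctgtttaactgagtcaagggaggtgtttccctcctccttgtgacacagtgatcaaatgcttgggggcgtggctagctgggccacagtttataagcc
Ifit1: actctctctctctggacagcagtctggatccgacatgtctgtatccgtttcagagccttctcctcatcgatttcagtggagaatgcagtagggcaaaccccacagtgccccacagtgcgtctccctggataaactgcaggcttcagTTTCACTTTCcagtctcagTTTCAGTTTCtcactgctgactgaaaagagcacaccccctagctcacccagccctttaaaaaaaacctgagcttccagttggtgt
Cxcl10: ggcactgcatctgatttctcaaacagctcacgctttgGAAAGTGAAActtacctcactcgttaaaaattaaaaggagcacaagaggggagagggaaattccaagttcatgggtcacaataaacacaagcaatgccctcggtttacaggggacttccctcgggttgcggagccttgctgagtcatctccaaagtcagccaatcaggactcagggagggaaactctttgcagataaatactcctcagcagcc
Isg15: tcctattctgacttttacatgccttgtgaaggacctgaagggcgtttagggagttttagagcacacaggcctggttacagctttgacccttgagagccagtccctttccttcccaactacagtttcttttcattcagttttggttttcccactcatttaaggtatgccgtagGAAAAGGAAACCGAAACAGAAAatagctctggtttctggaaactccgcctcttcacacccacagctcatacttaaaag

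The motif is uncommon in promoters at large and frequent in those of the genes that stood highest in the members. Over windows of 300 bases, 250 before to 50 after the start site, the core letters on either strand occur in 1131 of 32851 windows (3.44%), or in 3.99% of 27025 genes. Of the 20 genes that stood highest in members against other monocytes, 17 have a window and 12 of them (70.6%) hold the letters. The members were chosen on Ifit2, Ifit3 and Rsad2, so a high share among these genes follows from the choice and is no test. Close paralogs such as Ifit1, Ifit1bl1 and Ifit3b count as separate genes here. The share was 18 of 39 matched genes for the antiviral effectors, 10 of 10 for the list of GTPases induced by interferon gamma, 2 of 13 for the signalling genes and 0 of 14 for the classical monocyte genes. A match is a run of letters and no measure of binding, and a window without one says nothing about a factor.

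The rule admits some cells that carry transcripts of neutrophils or natural killer cells. The levels of the rule's own genes were fixed by the choice and are no check of the label: Rsad2 averaged 1319 ± 222 CPM (counts per 1000000 UMIs, summed over the cells of 1 kind in a library) in members against 10.2 ± 1.74 CPM in other monocytes at 48 h, and Ly6c2 averaged 1068 ± 627 CPM in members against 675 ± 141 CPM in other monocytes (SD, n = 4 libraries each). S100a8 and S100a9, which neutrophils make in large amounts, took over 1% of the UMIs in 24 members (14.9%) and in 725 other monocytes (17.1%), and those 24 members were shallow, with a median of 3691 UMIs. These members numbered 9 in Prdx1-/- ipsilateral, 8 in WT ipsilateral, 3 in Prdx1-/- contralateral and 0 in WT contralateral libraries at 48 h, and 4 at 24 h. Such other monocytes were uneven at 48 h, with 386 of 1278 in the Prdx1-/- ipsilateral and 22 of 1039 in the WT ipsilateral library. In the contralateral libraries of 48 h they were 54 of 300 (Prdx1-/-) and 24 of 198 (WT). Another 3 members, all contralateral, carried more than 2 UMIs of natural killer transcripts. The 134 members without either sign had a median of 14905 UMIs, and results are given below with and without the 27 cells where that matters.

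Across the 4 libraries of 48 h, the summed neutrophil markers ranged from 614 to 37984 CPM in members and from 7096 to 113060 CPM in other monocytes. The marker sums given here do not leave out genes of the rule. Natural killer and T cell markers summed to 3.50 to 489 CPM in members and to 104 to 779 CPM in other monocytes, with Cd3e at 0 in members by the rule and Ncr1 at 0 in the 134. Microglial markers summed to 457 to 772 CPM in members against 340 to 626 CPM in other monocytes, with Slc2a5 at 0. Plasmacytoid dendritic cell markers stood at 838 to 1636 CPM in members against 340 to 474 CPM in other monocytes, and Bst2, itself an interferon-induced gene, was the 1 marker of that list that was at least 2-fold higher, while Cd300c and Klk1 were at 0. Border macrophage markers summed to 486 to 569 CPM in members against 604 to 787 CPM in other monocytes, with Lyve1 at 0, and erythrocyte markers to 27.8 to 26757 CPM in members against 131 to 3785 CPM in other monocytes. The part of these cells or of free RNA in the results was not tested beyond leaving the 27 members out. No member was scored as a doublet, against 2.45% of the other monocytes and 4.00% of all cells, and pairs of libraries shared 3 to 17 cell barcodes.

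Prdx1 went with the labels at 48 h and, in the other monocytes of both hemispheres, against the Prdx1-/- label at 24 h. In members it was 7.01 CPM (4 UMIs) and 7.85 CPM (3 UMIs) in the Prdx1-/- ipsilateral and contralateral libraries of 48 h, against 756 and 759 CPM in the WT ipsilateral and contralateral libraries. At 24 h the 3 members of the library labelled Prdx1-/- ipsilateral had 369 CPM, against 444 CPM in the 8 members of the WT ipsilateral library. The other monocytes of 24 h showed the same, with 292 CPM (ipsilateral) and 241 CPM (contralateral) under the Prdx1-/- label, against 327 CPM (ipsilateral) and 370 CPM (contralateral) under the WT label. The genotype of the 24 h libraries therefore goes by the label alone, and the gene tests below use only the 4 libraries of 48 h, since the 24 h libraries held 3, 8, 0 and 1 members.

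Nearly all members came from 48 h. Interferon-responsive cells made up 3.18% of monocytes (42 of 1320 cells, 95% Clopper-Pearson interval 2.30% to 4.28%) in Prdx1-/- ipsilateral and 5.29% (58 of 1097, 4.04% to 6.78%) in WT ipsilateral tissue at 48 h. They made up 7.98% (26 of 326, 5.28% to 11.5%) in Prdx1-/- contralateral and 10.4% (23 of 221, 6.71% to 15.2%) in WT contralateral tissue at 48 h. At 24 h the shares were 0.396% (3 of 757) in the library labelled Prdx1-/- ipsilateral, 1.48% (8 of 539) in WT ipsilateral and 1.15% (1 of 87) in WT contralateral tissue. The library labelled Prdx1-/- contralateral had 0 of 64, which allows a share of up to 4.69%. Every share of 48 h lay above every share of 24 h, while the hemispheres and the genotypes overlapped. These intervals and limits cover counting error only.

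**Figure D1:**
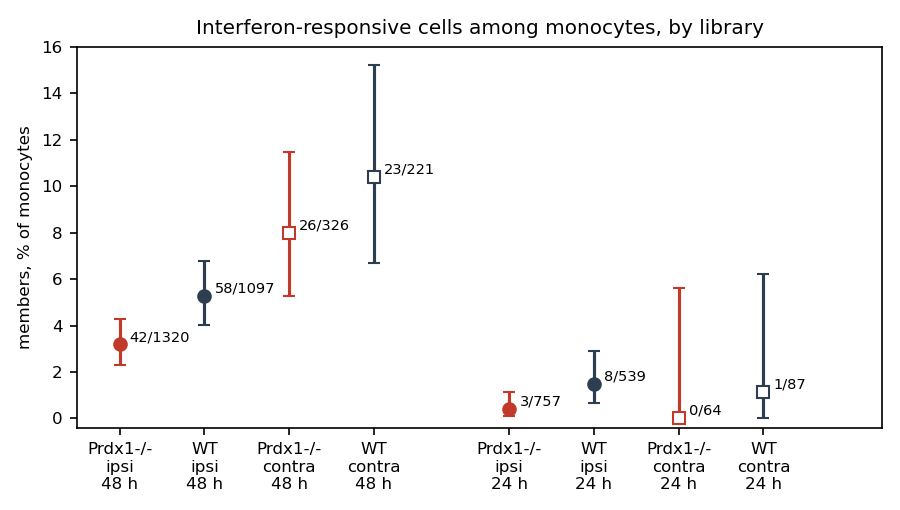
Share of interferon-responsive cells among monocytes (percent, y axis) in each of the 8 libraries, with exact 95% binomial intervals and the cell counts beside each point; filled circles are ipsilateral, open squares contralateral, red Prdx1-/- and dark blue WT as labelled. The 4 libraries of 48 h lie between 3.18% and 10.4%, those of 24 h between 0% and 1.48%.

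The mean share was 6.71% ± 3.15 at 48 h and 0.757% ± 0.680 at 24 h (SD, n = 4 libraries each), a difference of 5.96 percentage points that was positive in 4 of 4 matched pairs. The exact two-sided permutation test gave p = 0.0286, the smallest that 4 against 4 libraries allow, and 0.0857 after Benjamini-Hochberg adjustment over 6 share tests, so it did not pass 0.05. By genotype the mean was 2.89% ± 3.68 in the libraries labelled Prdx1-/- and 4.58% ± 4.31 in WT libraries (exact permutation p = 0.571, adjusted 0.686). The share was lower in the library labelled Prdx1-/- in 4 of 4 pairs, with differences of -2.11 (ipsilateral) and -2.43 points (contralateral) at 48 h, and the labels of the 24 h pairs are the ones that Prdx1 goes against. Without the neutrophil and natural killer-type cells of both populations it was lower in 3 of 4 pairs, with a mean difference of -1.53 points. The ipsilateral shares of 48 h were then 3.73% in Prdx1-/- and 4.78% in WT tissue. With at least 10 rule-gene UMIs per 10000 it was also lower in 3 of 4 pairs (-0.615 points). With all members counted but the WT contralateral library of 48 h left out, the difference of means was 0.248 points the other way. By hemisphere it was 2.59% ± 2.13 ipsilateral and 4.88% ± 5.09 contralateral (exact permutation p = 0.457, adjusted 0.686), with the ipsilateral share higher in both pairs of 24 h and lower in both pairs of 48 h. Counted over all cells instead of monocytes, members were 0.541% ± 0.523 of ipsilateral and 0.294% ± 0.328 of contralateral cells, higher ipsilaterally in 4 of 4 pairs (exact permutation p = 0.40, adjusted 0.686). At 48 h members were 0.779% ± 0.263 of all cells, against 0.0561% ± 0.0667 at 24 h (exact permutation p = 0.0286, adjusted 0.0857).

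Beside other monocytes of the same 4 libraries, the members had higher antiviral genes and lower genes of the cell cycle and of precursor granules, while the classical monocyte genes lay close to those of the other monocytes. Of 4874 genes measured (at least 20 CPM averaged over both populations, without the genes of the rule), 266 (5.46%) were at least 2-fold higher in members on average and higher in all 4 libraries, and 157 (3.22%) were at least 2-fold lower in the same sense. The all-gene median was -0.08 on the log2 scale of member over other CPM. The rule chose cells on 3 such genes, so these counts describe the choice and carry no test.

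The antiviral effectors, whose products block steps of viral replication, were the longest of the interferon lists. Of 47 measured effectors besides the rule genes, 42 were at least 2-fold higher (41 without the neutrophil and natural killer-type cells), with a median log2 ratio of 2.59. All 49 list genes in the files summed to 27318, 32717, 35989 and 26727 CPM in members against 9271, 12602, 9450 and 9926 CPM in other monocytes, in the order Prdx1-/- ipsilateral, WT ipsilateral, Prdx1-/- contralateral and WT contralateral. Isg15, a ubiquitin-like modifier, had 2126, 2699, 3474 and 2725 CPM in members against 74.3, 159, 60.2 and 101 CPM in other monocytes of these libraries. Its lowest member library was above its highest library of other monocytes by a wide margin, and the mean was 2756 ± 553 CPM against 98.6 ± 43.7 CPM (log2 ratio 4.79). Ifit1, which binds viral RNA lacking a methylated cap, was at 452, 648, 566 and 299 CPM in members against 3.93, 7.76, 4.82 and 4.32 CPM in other monocytes (log2 ratio 6.31), again without overlap.

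The remaining effectors among the 20 highest genes were Ifit1bl1 (log2 ratio 6.46), Ifit3b (6.23), the 2-5A synthetase-like Oasl1 (5.13), the GTPase Mx1 (5.12), the nucleotide kinase Cmpk2 (4.06), the GTPase Ifi47 (4.04), Phf11b, Ly6a (3.88) and the exonuclease Isg20 (3.83). Ifit1, Ifit1bl1, Ifit3 and Ifit3b are close paralogs, as are the Phf11 and the Ifi200 genes, and the split of reads between members of such families is uncertain. Slfn4, a schlafen gene of myeloid cells, averaged 459 ± 155 CPM in members against 38.1 ± 7.47 CPM in other monocytes, and Ms4a4c 1955 ± 434 CPM against 278 ± 68.0 CPM.

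The sensors of nucleic acid had a median log2 ratio of 2.53 and the signalling genes one of 0.65. Of 13 sensors, 9 were at least 2-fold higher (8 without the 27 cells), among them the RNA helicases Ifih1 (194 CPM in members against 19.8 CPM in other monocytes) and Ddx58 (204 against 23.2 CPM), and Zbp1, a sensor of Z-form nucleic acid (601 against 79.6 CPM). Ifi205, of the DNA-binding PYHIN family, averaged 153 CPM in members against 3.38 CPM in other monocytes. Of 14 signalling genes, 6 were at least 2-fold higher, with the factors Irf7, Stat2, Irf1 and Irf9 and the adaptor Nmi among them. Irf7 had 655, 856, 1121 and 802 CPM in members of the 4 libraries against 41.9, 78.5, 54.6 and 71.4 CPM in other monocytes (log2 ratio 3.78), with no overlap. Stat2 averaged 158 CPM in members against 18.0 CPM in other monocytes (3.07).

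The receptor genes differed by less than 2-fold. None of 5 measured receptor genes reached 2-fold: Ifnar1 averaged 108 ± 6.36 CPM in members against 73.7 ± 11.5 CPM in other monocytes, Ifnar2 had 111 against 105 CPM, and Ifngr1 260 against 358 CPM. Of 7 feedback genes, which limit the response, 4 were at least 2-fold higher, led by Usp18, the protease that removes ISG15 and blocks the receptor (245 against 9.24 CPM, log2 ratio 4.58), while Socs3 was at 0.09. The list of GTPases induced by interferon gamma also holds Ifi203, an Ifi200 gene that is no GTPase. All 7 measured genes of that list were at least 2-fold higher (median log2 ratio 3.15), with Gbp2 at 188 ± 86.4 CPM in members against 9.15 ± 3.09 CPM in other monocytes and Irgm1 at 194 ± 52.6 against 18.9 ± 3.87 CPM. Of 16 genes of the class I antigen presentation pathway, 7 were, including the peptide transporter Tap1 (219 against 53.1 CPM), the transactivator Nlrc5 (log2 ratio 2.06) and B2m (2416 ± 575 against 1206 ± 231 CPM), whereas H2-D1 was at 0.40.

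Secreted factors were counted in an interferon-induced list and in a general inflammatory list, and both held genes that were higher in members. Of 7 measured interferon-induced chemokines and cytokines, 5 were at least 2-fold higher in members on average and higher in all 4 libraries. Cxcl10, the CXCR3 ligand that draws in T and natural killer cells, had 789, 1148, 3404 and 1835 CPM in members against 24.8, 14.3, 35.9 and 31.6 CPM in other monocytes, in the same library order, a log2 ratio of 6.02 without overlap. Ccl2 averaged 1735 ± 734 CPM in members against 466 ± 152 CPM in other monocytes and Ccl12 147 against 13.5 CPM, both ligands of CCR2. Of 18 inflammatory cytokine, chemokine and NF-kB genes, 5 were at least 2-fold higher (Il1rn, Il1a, Ccrl2, Ccl4 and Tnf), against 5.46% of all genes measured. Without the 27 cells 2 were. Il1b, which encodes interleukin-1 beta, averaged 3361 ± 1339 CPM in members and 2988 ± 908 CPM in other monocytes, with overlapping libraries, and Tnf averaged 159 ± 105 CPM in members against 72.7 ± 40.1 CPM in other monocytes, a log2 ratio of 1.12 that was 0.43 without the 27 cells.

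**Figure D2:**
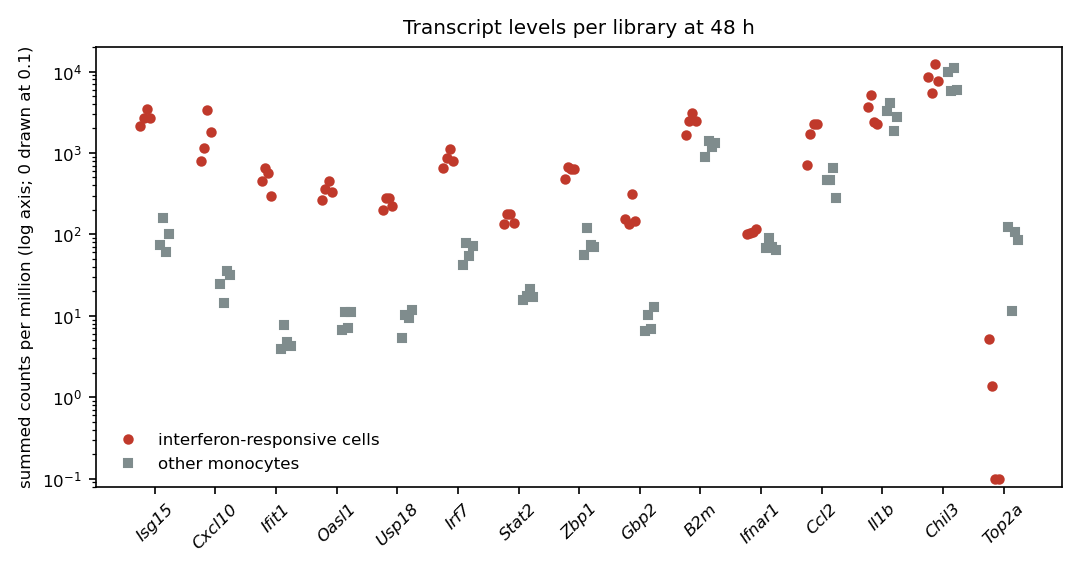
Summed transcript level (CPM, log axis, 0 drawn at the lower edge) of 15 genes in the interferon-responsive cells (red circles) and in other monocytes (grey squares) of the 4 libraries of 48 h, 1 point per library. The members lie above the other monocytes without overlap from Isg15 to Ccl2, overlap them for Il1b and Chil3 and lie below them for Top2a, where 2 member libraries are at 0.

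The monocyte programme was shared. None of 15 classical monocyte genes was at least 2-fold higher and 1 (Cd177) was lower. The list summed to 26265, 23062, 31873 and 23610 CPM in members against 24983, 22927, 26362 and 20656 CPM in other monocytes. These sums cover all 19 list genes in the files and do not leave out genes of the rule. Chil3, a chitinase-like protein of inflammatory monocytes, averaged 8515 ± 2913 CPM in members and 8132 ± 2677 CPM in other monocytes. None of 15 glycolysis genes and none of 17 dissociation and immediate-early genes was 2-fold higher in all libraries, and of 17 NRF2 targets and peroxiredoxins 2 (G6pdx and Gclm) were lower and none higher.

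Genes of the cell cycle were lower. Of 10 measured proliferation genes, 9 were at least 2-fold lower in members on average and lower in all 4 libraries, and the list summed to 955, 876, 830 and 822 CPM in members against 4197, 1459, 3597 and 3426 CPM in other monocytes. Top2a, the topoisomerase of dividing cells, averaged 1.66 CPM in members against 81.7 CPM, with 11.4 CPM in the lowest library of other monocytes, the WT ipsilateral one. The granule genes of myeloid precursors moved with it. Ctsg averaged 0.438 CPM in members against 148 CPM in other monocytes, and Elane, Mpo, Ms4a3 and Fcnb were also among the 10 lowest. Mcpt8 was among these 10 too, but through the WT contralateral library. Its other monocytes had 577 CPM of Mcpt8 there and at most 6.92 CPM in the other libraries. The log2 ratio of Mcpt8 was -0.23 without the neutrophil and natural killer-type cells of both populations. Of 15 neutrophil markers 9 were lower, and without the neutrophil and natural killer-type cells of both populations the proliferation sums were 784 to 903 CPM in members against 1341 to 2741 CPM in other monocytes. The share of precursor-like cells among the other monocytes was not measured.

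The difference lay in the number of cells with a transcript as well as in the level. With each cell thinned to 3000 UMIs (142 members and 2792 other monocytes of 48 h were deep enough), Isg15 was found in 94.4% of members (exact 95% interval 89.2% to 97.5%) against 19.0% of other monocytes, and Ifit1 in 56.3% against 1.29%. Cxcl10 was found in 42.3% of members (34.0% to 50.8%) against 3.65% of other monocytes, or in 53.7% against 10.9% without thinning. Il1b was found in 71.8% of members against 73.4% of other monocytes and Chil3 in 68.3% against 69.4%. The intervals cover counting error over cells that share a library.

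Among the members themselves the response was graded. The 3 rule genes ranged from 5.21 to 159 UMIs per 10000 in the 149 members of 48 h, with library medians of 13.5, 18.1, 20.8 and 13.3 in the order Prdx1-/- ipsilateral, WT ipsilateral, Prdx1-/- contralateral and WT contralateral. The 40 members with 10 to under 20 had a median of 272 effector UMIs per 10000 and the 20 with 50 or more had 406, while the 45 just inside the threshold (5 to under 10) had 236. The 46 monocytes just outside it (2.5 to under 5) had 201 and the 2491 monocytes without any UMI of the 3 genes had 102. Mean Isg15 ran from 0.762 UMIs per 10000 in that last set over 8.87 just outside to 12.4 just inside the threshold and 57.2 at 50 or more. The values on both sides of the threshold thus lie close together, and the boundary is a point on a range.

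Cxcl10 was concentrated in the strongest responders. A Cxcl10 UMI was found in 10.1% of monocytes without rule transcripts, in 28.3% just outside the threshold and in 26.7%, 50%, 72.7% and 80.0% of members from the lowest to the highest tier. The 3222 Cxcl10 UMIs of the members of 48 h came from 80 of 149 cells, and 10 cells held 62.6% of them. Mean Ly6c2, a gene of the rule, was 6.47 UMIs per 10000 in the lowest tier of members and 22.4 in the highest.

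**Figure D3:**
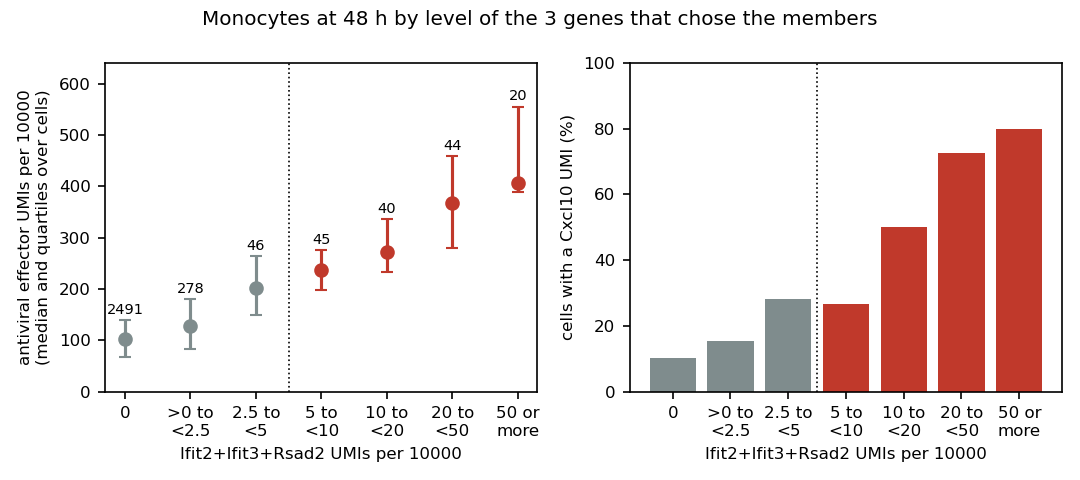
Monocytes of 48 h by their level of the 3 rule genes (x axis, UMIs per 10000; the dotted line is the threshold of 5; red, members; grey, other monocytes). Left, median and quartiles of the antiviral effector UMIs per 10000 with the number of cells; right, percent of cells with a Cxcl10 UMI, from 10.1% to 80.0%.

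The ipsilateral and contralateral members of 48 h were then compared, which asks whether the cells differ between the injured side and the other. Ipsilateral members had more Nlrp3, Tnf and Nr4a3, and contralateral members more Rgs1, Cxcl10, Ifi205 and complement C1q, while 5 of 123 interferon-list genes passed the test. The edgeR quasi-likelihood fit on summed counts, with genotype as a covariate, called 51 of 4698 genes (1.09%) at a Benjamini-Hochberg adjusted p under 0.05, 35 higher (0.745%) and 16 lower (0.341%) ipsilaterally, and 354 had an unadjusted p under 0.05. With 4 libraries the fit has 1 residual degree of freedom. The count was 42 without the neutrophil and natural killer-type cells and 81 without the WT contralateral library, but 7 with DESeq2 and 14 when members needed at least 3 raw UMIs of the rule genes.

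Over the 8 interferon lists together, 5 of 123 tested genes (4.07%, against 1.09% of all genes tested) were called, 1 higher and 4 lower ipsilaterally. At an unadjusted p under 0.05 there were 14 (11.4%, against 7.54% of all genes), 3 higher and 11 lower, and DESeq2 called 1. The median log2 difference was -0.12 over these 123 genes and -0.02 over all tested. No receptor (0 of 5) and no signalling gene (0 of 14) was called by edgeR or by DESeq2, and none of these had an unadjusted p under 0.05. Isg15, at 2126 and 2699 CPM in the Prdx1-/- and WT ipsilateral libraries against 3474 and 2725 CPM in the Prdx1-/- and WT contralateral libraries, had an adjusted p of 0.827 in the edgeR fit, and Irf7 one of 0.90. Among the effectors only Ifitm1 was called, at 1.13 higher on the log2 scale (adjusted p = 0.0348 in edgeR), and it held in only 4 of 10 alternatives. It was lost without the 27 cells (edgeR adjusted p = 0.0507), with DESeq2, with RLE size factors and with at least 3 raw UMIs. Leaving out the Prdx1-/- ipsilateral or the WT contralateral library also ended the call.

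Rgs1, which shortens signals from G-protein-coupled chemokine receptors, had the smallest adjusted p among the genes lower ipsilaterally. It had 154 and 150 CPM in ipsilateral members (Prdx1-/- and WT) against 655 and 589 CPM in contralateral members. The contralateral libraries lay about equally far above both ipsilateral ones, and the log2 difference was -2.05 ± 0.20 (SE; edgeR adjusted p = 5.1e-07; 10 of 10 alternatives). In other monocytes the values were 95.9 and 190 CPM ipsilaterally against 288 and 371 CPM contralaterally, and the difference between the populations was not called (adjusted p = 0.188 in the edgeR interaction fit).

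Of the 4 interferon-list genes lower on the injured side, Cxcl10 and Ifi205 are described first and Ccl5 and H2-Q7 after them. Cxcl10 had 789 and 1148 CPM in the Prdx1-/- and WT ipsilateral members against 3404 and 1835 CPM in the Prdx1-/- and WT contralateral members, a log2 difference of -1.41 ± 0.32 (SE, edgeR adjusted p = 0.0352). Both contralateral values were above both ipsilateral ones, but the call was lost with RLE size factors (adjusted p = 0.104), DESeq2 (0.9995) and at least 3 raw UMIs (0.194). Without the highest Cxcl10 cell of each library the values were 694 and 800 CPM ipsilaterally against 2851 and 1256 CPM contralaterally. Ifi205 had 71.8 and 101 CPM in ipsilateral against 259 and 179 CPM in contralateral members (log2 difference -1.34 ± 0.26, edgeR adjusted p = 0.00619), and was lost with DESeq2 (0.830) and with at least 3 raw UMIs (0.119).

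Gzmb, Ccl5, Il2rb and H2-Q7, which lymphocytes express, were also lower ipsilaterally. Gzmb, the natural killer and T cell protease granzyme B, had 1.75 and 0 CPM in ipsilateral against 34.0 and 142 CPM in contralateral members. Without the 27 cells Gzmb and Il2rb were not tested, and neither Ccl5 (log2 difference -1.10, against -3.22 with them) nor H2-Q7 (-1.93, against -2.41) was called (edgeR adjusted p = 0.989 and 0.112). The complement genes C1qa (87.6 and 194 CPM in ipsilateral against 196 and 424 CPM in contralateral members, log2 difference -1.17, edgeR adjusted p = 0.0039) and C1qb (-1.42, adjusted p = 0.0342) were also lower. C1qa was lost without the Prdx1-/- ipsilateral library (adjusted p = 0.418) and without the WT contralateral one (0.747), and C1qb without either of these or the Prdx1-/- contralateral library (0.686, 0.833 and 0.951). The metallothionein Mt2 (-2.08, called in 5 of 9 alternatives and lost without the Prdx1-/- contralateral library at -1.03), the phospholipase Pla2g16 (-2.92, 2 of 8), the sialyltransferase St6galnac4 (-1.26, 4 of 10) and the chemokine Cxcl3 (-1.23), which came to 97.7% from 1 cell in the WT contralateral library, completed the named lower genes.

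Of 18 inflammatory cytokine, chemokine and NF-kB genes, 2 were higher (Tnf and Nlrp3) and 1 lower (Cxcl3), with 8 at an unadjusted p under 0.05 and none called by DESeq2. Nlrp3, the inflammasome sensor that leads to release of interleukin-1 beta, had 266 and 262 CPM in ipsilateral members (Prdx1-/- and WT) against 75.9 and 85.3 CPM in contralateral members. The groups lay far apart, with a log2 difference of 1.69 ± 0.25 (SE, edgeR adjusted p = 0.000222), called in 9 of 10 alternatives and lost with DESeq2 (0.0989). Other monocytes had 200 and 254 CPM ipsilaterally against 95.6 and 119 CPM contralaterally, and the difference between the populations was not called (edgeR adjusted p = 0.45). Tnf was at 237 and 262 CPM in ipsilateral against 75.9 and 62.6 CPM in contralateral members (log2 difference 1.82, edgeR adjusted p = 0.000109), with 1.86 (adjusted p = 0.0601) without the 27 cells, 1.83 (0.0612) in DESeq2, and 86.4% of the WT contralateral UMIs in 1 cell. Il1b did not pass, at 3671 and 5126 CPM ipsilaterally against 2404 and 2244 CPM contralaterally (log2 difference 0.88, edgeR adjusted p = 0.103), but it did without the 27 cells (1.01, adjusted p = 0.0238).

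The early-response factors Nr4a3, Nr4a1 and Egr1 were higher ipsilaterally. Nr4a3, an orphan nuclear receptor, had 57.8 and 115 CPM in ipsilateral against 13.1 and 17.1 CPM in contralateral members (log2 difference 2.44 ± 0.41, edgeR adjusted p = 0.000994, 9 of 10 alternatives). Phlda1 had 99.9 and 216 CPM against 41.9 and 45.5 CPM (log2 difference 1.77, edgeR adjusted p = 0.00108), and was lost without the WT ipsilateral library (adjusted p = 0.121). Of the 17 dissociation and immediate-early genes, Egr1 (log2 difference 1.37) and Nr4a1 (0.80) were called, the others were not, DESeq2 called none and the list's median was -0.02. Egr1 was called in 5 of 10 alternatives, and was lost without the 27 cells (edgeR adjusted p = 0.325) and without the WT contralateral library. Nr4a1 stayed called without the 27 cells (edgeR adjusted p = 0.0339) but in only 4 of 10 alternatives, and was lost with DESeq2 and with RLE size factors. Flrt3, an adhesion protein, was at 68.3 and 45.8 CPM in ipsilateral members against 0 and 2.84 CPM in contralateral members, from 6 and 10 ipsilateral cells and 0 and 1 contralateral cells, and was called in 9 of 9 alternatives. Rab11fip1, an effector of endosome recycling, and Slc25a33, a mitochondrial pyrimidine carrier, were also among the 10 largest, at 2.14 and 2.04. They were called in 7 and 5 of 10 alternatives.

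The neutrophil transcripts S100a8, Mmp9, Retnlg and Asprv1 filled the remaining places. S100a8 had 13247 and 1443 CPM in the Prdx1-/- and WT ipsilateral members against 1283 and 154 CPM in the Prdx1-/- and WT contralateral members (log2 difference 3.28, edgeR adjusted p = 1.66e-08), and without the 27 cells it was -0.53 (adjusted p = 0.433). S100a8 itself helped choose those cells. Of all 51 calls, 10 had at least 50% of the UMIs of a library on the higher side in 1 cell. With each library's highest cell left out, 48 kept their direction and 34 remained at least 2-fold apart in both pairs.

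**Figure D4:**
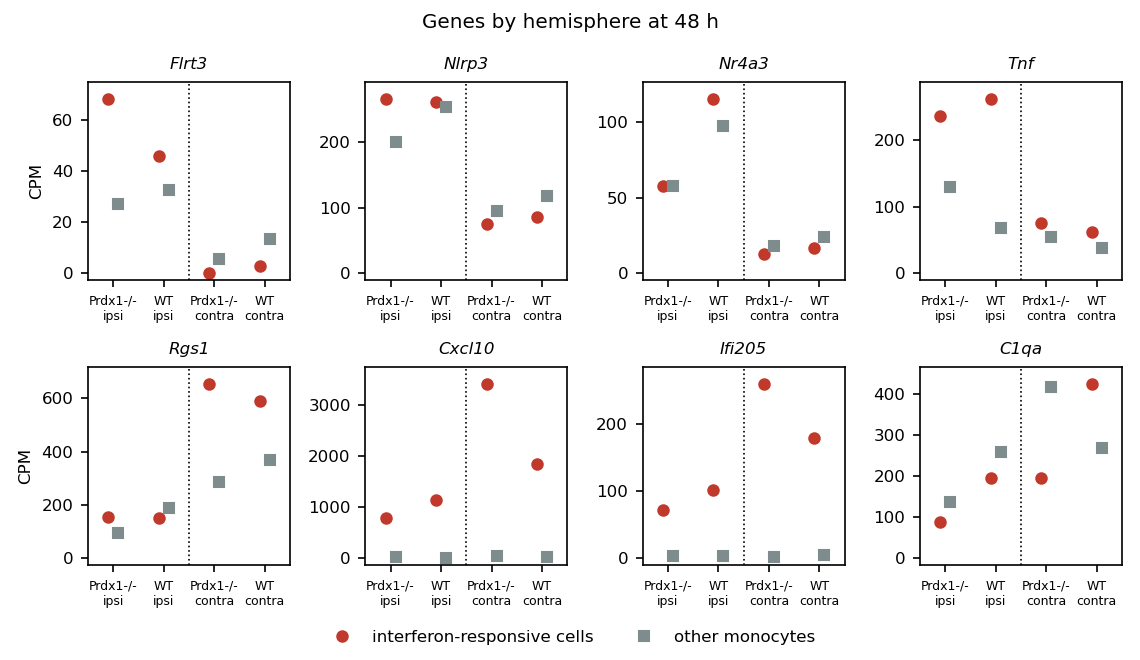
Level (CPM, y axes) of 8 genes in the 4 libraries of 48 h, in the interferon-responsive cells (red circles) and in other monocytes (grey squares); ipsilateral libraries lie left of the dotted line. Nlrp3 reads 266 and 262 CPM in ipsilateral against 75.9 and 85.3 CPM in contralateral members, Rgs1 154 and 150 against 655 and 589 CPM.

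The comparison of Prdx1-/- with WT members at 48 h asks whether the cells depend on peroxiredoxin 1. Apart from Prdx1, the calls included a lower Ccl7 and Cd83 in Prdx1-/- members and higher neutrophil transcripts, Car2 and Ccnd2, while 2 of 123 interferon-list genes passed the test. Each genotype had an ipsilateral and a contralateral library, which may come from the same animals. The edgeR fit called 25 of 4698 genes (0.532%), 15 higher (0.319%) and 10 lower (0.213%) in Prdx1-/- members, and 276 had an unadjusted p under 0.05. The count was 33 without the 27 cells, 64 without the Prdx1-/- contralateral library, 64 without the Prdx1-/- ipsilateral library, 9 with DESeq2 and 12 with at least 3 raw UMIs of the rule genes. Prdx1 itself had a log2 difference of -6.61 ± 0.30 (SE, edgeR adjusted p = 4.26e-14).

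Over the 8 interferon lists, 2 of 123 genes (1.63%, against 0.532% of all genes tested) were called by edgeR (Ifitm6 higher, Ccl7 lower), 10 had an unadjusted p under 0.05 (8 higher, 2 lower; 8.13%, against 5.88% of all genes), DESeq2 called 3, and the median log2 difference was 0.00. Isg15 had 2126 and 3474 CPM in the Prdx1-/- ipsilateral and contralateral members against 2699 and 2725 CPM in the WT ipsilateral and contralateral members (log2 difference 0.02 ± 0.26, SE). Usp18 was at 200 and 278 CPM in Prdx1-/- against 279 and 222 CPM in WT members (-0.08 ± 0.22). For both genes the groups overlapped and the SE exceeded the difference. In simulated counts at these depths the fit found 22.5% of genes changed by 1 on the log2 scale and 91.0% of those changed by 2. Smaller differences would thus mostly be missed even in such counts. They were drawn with the spread that the same fit estimated, without single cells that hold much of a gene's UMIs. The rates are averages over genes of at least 20 CPM and give no rate for Isg15 or Usp18. Ifitm6 was lost without the 27 cells (adjusted p = 0.106).

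Ccl7, a ligand of CCR2 and other chemokine receptors, was lower in Prdx1-/- members in 10 of 10 alternatives. It had 121 and 141 CPM in the Prdx1-/- ipsilateral and contralateral members against 717 and 833 CPM in the WT ipsilateral and contralateral members. The groups did not overlap, and the log2 difference was -2.54 ± 0.24 (SE, edgeR adjusted p = 1.1e-07). The UMIs came from 6 and 4 Prdx1-/- cells and 12 and 4 WT cells, and without the highest cell of each library the levels were 27.0 and 85.7 CPM in Prdx1-/- against 378 and 318 CPM in WT members. In other monocytes Ccl7 was at 91.1 and 145 CPM in Prdx1-/- against 128 and 60.5 CPM in WT libraries, and the genotype difference was more negative in members (log2 difference of differences -2.91 ± 0.25, edgeR adjusted p = 3.27e-26). That last call held in 6 of 8 alternatives and was lost without either Prdx1-/- library.

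Other lower genes were Cd83, an activation marker (73.6 and 41.9 CPM in Prdx1-/- against 229 and 111 CPM in WT members, log2 difference -1.52, edgeR adjusted p = 0.00208), and the interleukin-7 receptor gene Il7r (35.0 and 28.8 against 103 and 108 CPM, -1.66). The membrane protein genes Emp1 (103 and 94.3 against 297 and 202 CPM, -1.31) and Pdpn (-1.66), Tubb6, Got1 and C1qa (-1.11) followed. Leaving out the WT ipsilateral library ended the calls of Cd83 (adjusted p = 0.828), Emp1 (0.21), Pdpn (0.101), Tubb6 (0.517) and Got1 (0.999), and leaving out the WT contralateral library ended those of Il7r (0.0632), Tubb6 (0.0528) and C1qa (0.999), the last also lost without the Prdx1-/- ipsilateral library (0.906). Inhba, a subunit of activin A, had 10.5 and 2.62 CPM in Prdx1-/- against 93.0 and 284 CPM in WT members, but all 100 UMIs of the WT contralateral library were in 1 cell, and the call was lost without either Prdx1-/- library (adjusted p = 0.906 and 0.745).

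Of the 15 higher genes, 5 were among 10 tested neutrophil markers (S100a8, Retnlg, Mmp9, Mmp8 and Lcn2), and the others included Car2, Wfdc21, Gm5483, Ccnd2, Il1r2, Fpr2, Ifitm6, Shtn1, Spint1 and Tnfaip2. The members with over 1% S100a8 and S100a9 numbered 12 in Prdx1-/- and 8 in WT libraries of 48 h. Among other monocytes such cells numbered 386 (ipsilateral) and 54 (contralateral) in Prdx1-/- against 22 and 24 in WT libraries. The part of neutrophil RNA in the higher neutrophil transcripts was not tested further. Without the 27 cells S100a8 (1.98, edgeR adjusted p = 1.49e-07), Lcn2 (1.97) and Wfdc21 (2.58, adjusted p = 3.7e-05) stayed called. Since S100a8 helped choose the cells left out, its value without them is no separate check. S100a8 lost its call on leaving out any 1 library (0.69 without Prdx1-/- ipsilateral to 5.56 without WT ipsilateral). Car2, a carbonic anhydrase, had the largest fitted change, with 37 and 10 UMIs in 3 and 3 Prdx1-/- cells of the ipsilateral and contralateral libraries against 0 in WT members, so its size depends on the fit's prior. Mmp8, neutrophil collagenase, which other monocytes also carried, had 382 and 223 CPM in Prdx1-/- against 51.3 and 79.6 CPM in WT members, called in 10 of 10 alternatives (log2 difference 2.30, edgeR adjusted p = 0.00539). Ccnd2, which encodes cyclin D2, had 89.4 and 105 CPM in Prdx1-/- against 23.6 and 25.6 CPM in WT members (1.98 ± 0.33, adjusted p = 0.00153), and was lost without the WT ipsilateral library (0.0584). Of the 25 calls, 24 kept their direction and 23 remained at least 2-fold apart in both pairs without each library's highest cell. Of 17 NRF2 targets and peroxiredoxins, Prdx1 was the 1 gene called.

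**Figure D5:**
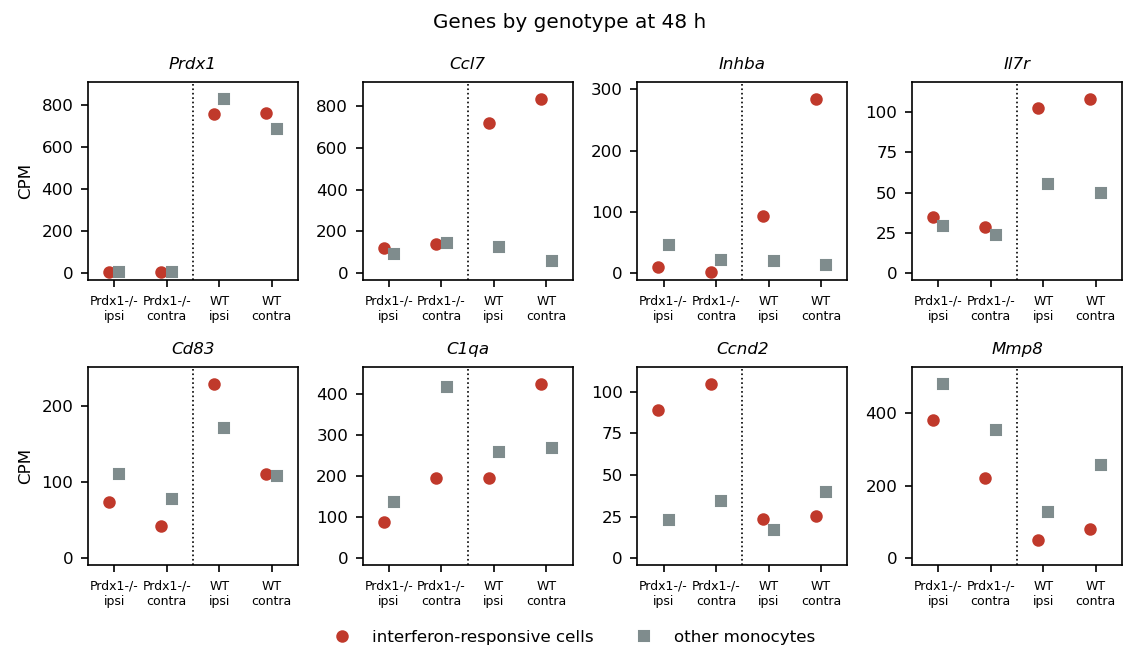
Level (CPM, y axes) of 8 genes in the 4 libraries of 48 h, in the interferon-responsive cells (red circles) and in other monocytes (grey squares); Prdx1-/- libraries lie left of the dotted line. Ccl7 reads 121 and 141 CPM in Prdx1-/- against 717 and 833 CPM in WT members and stays at or below 145 CPM in other monocytes.

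Whether hemisphere or genotype acted differently on members than on other monocytes was tested in 1 fit of both populations with the library as a block. This fit too has 1 residual degree of freedom. The hemisphere difference was called as unequal for 64 of 8925 genes (0.717%; 529 at an unadjusted p under 0.05) and the genotype difference for 40 (0.448%; 471). Of these, 35 and 22 were also called without the neutrophil and natural killer-type cells of both populations. The counts fell to 16 and 8 without the Prdx1-/- contralateral library, to 35 for hemisphere without the WT ipsilateral one and to 14 for genotype without the Prdx1-/- ipsilateral one.

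At 24 h the 12 members were few but carried the same transcripts. The 8 of WT ipsilateral tissue had 1708 CPM of Isg15 and 2952 CPM of Cxcl10 when summed, and the 3 of the library labelled Prdx1-/- ipsilateral had 2083 and 5078 CPM. Cxcl10 came mostly from 1 cell in each, at 157 and 142 UMIs per 10000, and 7 of the 12 had none. Of the 12, 4 had over 1% S100a8 and S100a9, the single contralateral member among them with 41.6%. No test was made at this number of cells.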

How the data were processed

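Single-cell RNA from 8 brain libraries (10x 3' v2 chemistry, per the labels) was measured. The authors deposited tables of unnormalized UMI counts, as whole numbers, for 20340 genes in 39945 cells with at least 501 UMIs each. The submitters' processing notes list Cell Ranger, Seurat and mm10 with no version number, and further steps are not given in the sources used here. Members and other monocytes were found by the rule in the report, which holds no clustering, and the members, gene lists and tests were chosen with earlier results of these data known. Cells with over 10% mitochondrial UMIs (337) were left out. Doublets were scored with Scrublet in scanpy 1.11.5 (expected rate 0.8% per 1000 cells) and kept, with an alternative without them.

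Counts were summed per library and population. Libraries with at least 20 members, the 4 of 48 h, entered an additive edgeR 4.0.16 fit (R 4.3.3) of hemisphere and genotype with TMM scaling, filterByExpr, the quasi-likelihood test and Benjamini-Hochberg adjustment over all genes tested, at 0.05; the planned contrast of 48 h with 24 h could not be fitted, as the 24 h libraries held too few members. Tests on simulated counts with 200 changed genes found, for hemisphere, 22.0% of those changed by 1 and 86.0% of those changed by 2 on the log2 scale. These counts took their spread from the same fit, so the rates hold under its own assumptions only. Genes named were the 10 largest called changes in each direction, with 20 CPM or more on average and the same sign in both pairs. Up to 4 per list by p were added. Beside other monocytes they were the 20 highest and 10 lowest ratios (prior of 1 CPM, at least 50 CPM in the higher population). Genes outside this rule, such as Il1b and Chil3 among values beside other monocytes, were chosen after their values were seen. Shares were tested by exact permutation over libraries. Alternatives were DESeq2 1.42.0, RLE size factors, no filter, at least 3 raw UMIs of the rule genes, other rule limits, thinning, no doublets and each library left out; permutation within matched libraries and the alternative without members or other monocytes that had over 1% S100a8 and S100a9 or more than 2 natural killer UMIs were chosen after seeing the data. Leaving out a library leaves 1 library in a group, assumed to vary like the others, with 1 factor fitted. Some genes are not reported here. Promoter windows are from RefSeq tables of GRCm38.p6.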

Additional observations from a re-analysis of the deposited data

Results flagged for a closer look

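The share of interferon-responsive cells among monocytes was lower ipsilaterally than contralaterally at 48 h and higher at 24 h. The ipsilateral minus contralateral difference averaged -4.957 percentage points at 48 h, negative in both pairs, and 0.3656 points at 24 h, positive in both pairs. The difference between the times was not tested, and the 24 h contralateral libraries held 0 and 1 members.

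The hemisphere difference was unequal in members and other monocytes (edgeR interaction fit, Benjamini-Hochberg adjusted p under 0.05, also without the neutrophil and natural killer-type cells) for 8 named genes. Cxcl1, a neutrophil-attracting chemokine, gave a fitted 10.24 on the log2 scale, with 8 and 72 UMIs in 4 and 6 ipsilateral members and 0 in contralateral ones, so the size depends on the fit's prior. Hpgd, which breaks down prostaglandins, gave 4.602, with 24 and 20 UMIs in ipsilateral against 0 and 2 in contralateral members. The metallothionein Mt2 gave -3.491, the epidermal growth factor receptor ligand Areg -2.51, the chemokine Cxcl3 -1.858, Dmkn -1.721, Ifi205 -1.498 and the metalloproteinase Mmp19 -1.478. These calls held in 4 of 8 alternatives for Ifi205, 5 for Cxcl1, 6 for Areg and Mmp19 and 7 for the others, and without the Prdx1-/- contralateral library only Mmp19 stayed called. Areg had 149 and 38.9 CPM in ipsilateral members against 126 and 128 CPM in contralateral members, where other monocytes had 153 and 134 CPM ipsilaterally against 44.0 and 31.2 CPM contralaterally. Dmkn had 68.3 and 68.0 CPM in ipsilateral against 147 and 117 CPM in contralateral members, and 107 and 154 CPM against 79.3 and 69.1 CPM in other monocytes of these sides.

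The genotype difference was unequal for 11 named genes in the same fit. It was more positive in members for Gm20186 at 3.769, the chemokine Ccl5 at 3.026, AW112010 at 2.245 and Ccnd2 at 1.781. It was more negative in members for Inhba at -5.359, the CCR2 ligands Ccl7 at -2.914, Ccl12 at -1.251 and Ccl2 at -1.242, the eotaxin Ccl24 at -2.175, C1qa at -1.017 and the tetraspanin Cd9 at -0.9234. AW112010 was called in 8 of 8 alternatives, Ccl7, Ccl5, Inhba and Gm20186 in 6, Ccnd2, Ccl2 (-1.83 to -0.65) and Ccl24 (-3.57 to -0.19) in 4, Ccl12 and C1qa in 3 and Cd9 in 2. Ccl2 had 708 and 2249 CPM in Prdx1-/- ipsilateral and contralateral members against 1706 and 2278 CPM in WT ipsilateral and contralateral members, while other monocytes had 463 and 650 CPM in Prdx1-/- against 471 and 279 CPM in WT libraries. AW112010 had 231 and 351 CPM in Prdx1-/- against 56.9 and 247 CPM in WT members, and 47.1 and 72.3 CPM against 51.2 and 257 CPM in other monocytes of these genotypes. Ccl24 rested on 5 and 10 UMIs in Prdx1-/- members against 45 and 20 in WT members, the last 20 in 1 cell.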

How the results depend on the processing

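Counts of called genes moved most. The hemisphere count of 51 was 7 with DESeq2, 24 with RLE size factors, 14 with at least 3 raw UMIs, 139 without the filter and 58 to 81 with a library left out. The genotype count of 25 was 9 with DESeq2, 12 with at least 3 raw UMIs, 86 without the filter and 20 to 64 with a library left out. The interaction counts of 64 (hemisphere) and 40 (genotype) were 28 and 15 with at least 3 raw UMIs, and 16 to 53 and 8 to 47 with a library left out; the cause of these shifts was not tested. The Prdx1-/- minus WT share difference ran from -3.39 to 0.248 points of monocytes and from -0.245 to 0.130 of all cells with a library left out, positive without WT contralateral 48 h for monocytes and, for all cells, without WT ipsilateral 48 h (0.130) or, at 24 h, the libraries labelled Prdx1-/- ipsilateral (0.0144) or contralateral (0.0320). The 3 gene differences that turned round were S100a8 by hemisphere (-0.53 without the 27 cells), Retnlg by hemisphere (-2.32 without Prdx1-/- ipsilateral 48 h, up to 7.84 over the libraries left out) and Mmp9 by genotype (-0.11 without the same library, up to 8.72). Over 606 alternatives of 67 gene results, 417 kept direction and call, 186 kept direction and lost the call and 3 reversed; of 90 for the shares, 86 kept direction and side of the threshold. The gene counts with at least 10 rule-gene UMIs per 10000 and with the stricter lineage were not run, since libraries fell under 20 members. The replicate number is the same in every label and pairs nothing. Permuting within the 4 pairs of matched libraries as a block, chosen after seeing the data, gave exact p = 0.125, the smallest it allows, for time (5.96 points of monocytes) and genotype (-1.69) and 0.50 for hemisphere (-2.30); over all cells it gave 0.125 for hemisphere and time and 0.375 for genotype. Depth limits rest on 23 to 58 members per library of 48 h.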

Other observations

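Transcripts of the interferons themselves were rare, and 4 of the 11 listed interferon genes are in the files used here. Ifnb1, which encodes interferon beta, had 388 UMIs in 67 of all cells, and 280 of these UMIs (72.2%) were in 51 cells with at least 10 microglial UMIs per 10000. Members had 0 Ifnb1 UMIs and other monocytes had 7 in 4 cells. Ifng had 448 UMIs in 193 cells, with 260 (58.0%) in 103 cells carrying Cd3e or Cd79a, 79 in 37 cells with natural killer transcripts and 10 in 2 members.

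Contralateral members of 48 h differed in some transcripts from the microglia that met the same interferon threshold (21 Prdx1-/- and 51 WT cells), and lay near them in others. Ccl12 averaged 159 CPM in members against 6321 CPM in these microglia, and Ccl4 710 against 10518 CPM. Isg15 averaged 3100 CPM in members against 944 CPM in microglia, Slfn4 545 against 3.69 CPM and Ifi205 219 against 2.53 CPM. Usp18 was at 250 CPM in members and 243 CPM in microglia, Ifit3b at 168 and 161 CPM and Ifit1 at 432 and 279 CPM. Cxcl10 was higher in microglia, at 4317 CPM against 2619 CPM in members. With 2 libraries of each kind, and cells chosen on the interferon threshold and on opposite lineage genes, no test was made. Whether a difference belongs to the response or to the cell type was not tested.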
